A study of Homo sapiens with 4 samples.

Results

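The cytosolic ribosomal protein genes were taken as all protein-coding genes of GENCODE 29 whose symbol is RPL or RPS followed by a number, with or without the endings A, X, L or L1, together with RPLP0, RPLP1, RPLP2 and RPSA. This gave 84 genes of 58226 gene IDs measured, 52 of the large and 32 of the small ribosomal subunit. The rule uses no measured value, although it was chosen with earlier results of these data known. FAU, RACK1 and RPL36AL, which encode or contain ribosomal proteins under other names, are outside this rule and are given beside the members. After siRNA against *LINC00461* in parental U87MG cells, 71 of the 78 members that could be compared had lower levels than in the control, with a median log2 ratio of −0.38. After siRNA against HDAC6 in the resistant cells the median was 0.05, and RPL41, at −1.30, stood apart from all other members.

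The cytosolic ribosome translates nuclear-encoded mRNA and is built from ribosomal RNA and about equal numbers of each ribosomal protein. Most of these proteins are encoded by single genes of high and even expression whose mRNAs begin with a 5′ terminal oligopyrimidine (5′TOP) motif, through which their translation responds to mTOR and the RNA-binding protein LARP1. MYC is a known activator of ribosomal protein and ribosome assembly genes, and several ribosomal proteins, RPL5 and RPL11 foremost, bind MDM2 and thereby stabilise p53 when ribosome assembly is disturbed.

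The study made 4 RNA-seq libraries, 1 for each condition, from total RNA taken 72 h after transfection. R-U87MG cells, a TMZ-resistant derivative of the glioblastoma (GBM) cell line U87MG kept in 50 μM temozolomide (TMZ, an alkylating drug), received non-targeting siRNA (si-NC) or siRNA against the deacetylase HDAC6 (si-HDAC6). Parental U87MG cells without TMZ received si-NC or siRNA against the lncRNA *LINC00461* (si-*LINC00461*). All of these cells were transfected with siRNA, so no library shows untransfected cells, and both lines come from 1 tumour. With 1 library per condition there was no replicate check. No p-value is given, and each interval below covers counting error only. Fragments copied by PCR are not independent molecules, so the intervals may be too narrow even for that error.

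Depth was 12596072 to 20027866 fragments per library. A count of 3, taken as the smallest measurable level, equalled 0.150 to 0.238 CPM, the count relative to the library total. The HDAC6 transcript went from 296 counts to 67 with its siRNA, a log2 ratio of −1.74, and *LINC00461* from 363 to 73 with its own, a ratio of −2.12. Of 10 glioma and mesenchymal markers, 7, among them VIM, NES, CD44, FN1, CAV1 and TNC, were above 1 CPM in all libraries, and the whole list summed to 17562 to 22783 CPM. The astrocyte markers GFAP and S100B were below 1 CPM in all libraries and OLIG2 lay between 0.749 and 9.13 CPM. Of 6 markers of other cells, CD68 (424 to 734 CPM), PECAM1 and EPCAM were above 1 CPM in all libraries. This list summed to 442 CPM in U87MG si-NC and 787 CPM in si-*LINC00461*, most of it CD68, with the leukocyte markers PTPRC and CD3E at or below 0.238 CPM throughout. The endothelial marker PECAM1 had 1.62, 1.27, 2.60 and 24.4 CPM, and ALB, a hepatocyte marker, 1.08, 0.397, 13.6 and 26.4 CPM, in the order R-U87MG si-NC, R-U87MG si-HDAC6, U87MG si-NC and U87MG si-*LINC00461*. Both were highest in the si-*LINC00461* library, and their part in the lower ratios of the members there was not tested.

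The 5′TOP motif was looked for at the annotated start of each gene, as a C followed by at least 4 bases that are each C or T, on the transcribed strand only. A RefSeq window of the start (GRCh38.p14) was at hand for 67 of the 84 members, of which 47 (70.1%) held the motif. It was found in 6.08% of the 14811 other protein-coding genes with a window and in 8.70% of the mitochondrial ribosomal protein genes. Among the paralogs RPL26L1, RPL7L1 and RPS27L lacked it, whereas RPL22L1 held it. The windows below run from 10 bases before the start to 20 bases from it, 5′ to 3′, and capitals mark the unbroken run of C and T from the start, where the motif was present. They show RPL41, which stood apart after si-HDAC6, RPLP1, RPS21 and RPL34, which lay at the ends of the ratios after si-*LINC00461*, and 3 parents beside their paralogs.
RPL41, chr12:56116623-56116652, plus strand: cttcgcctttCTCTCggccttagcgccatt
RPLP1, chr15:69452808-69452837, plus strand: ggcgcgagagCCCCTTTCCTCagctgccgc
RPS21, chr20:62387093-62387122, plus strand: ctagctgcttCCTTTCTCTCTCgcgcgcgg
RPL34, chr4:108620566-108620595, plus strand: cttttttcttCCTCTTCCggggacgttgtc
RPL22, chr1:6199576-6199605, minus strand: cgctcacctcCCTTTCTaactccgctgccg
RPL22L1, chr3:170870176-170870205, minus strand: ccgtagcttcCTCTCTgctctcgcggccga
RPL26, chr17:8383174-8383203, minus strand: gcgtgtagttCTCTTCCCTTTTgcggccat
RPL26L1, chr5:172958719-172958748, plus strand: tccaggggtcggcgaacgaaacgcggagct
RPS27, chr1:153990752-153990781, plus strand: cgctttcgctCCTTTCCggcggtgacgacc
RPS27L, chr15:63157458-63157487, minus strand: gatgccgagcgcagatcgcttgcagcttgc

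The members took 1.75% of all fragments in R-U87MG si-NC (exact 95% binomial interval 1.74 to 1.75) and 1.81% in si-HDAC6 (1.81 to 1.82). The share was 1.22% in U87MG si-NC (1.21 to 1.22) and 0.871% in si-*LINC00461* (0.866 to 0.875). The share was thus lowest after si-*LINC00461*, and both libraries of the resistant cells were above both libraries of the parental cells. In RNA of a whole culture, fewer cells of a type and less of a transcript per cell cannot be told apart. The large subunit gave 1.21, 1.26, 0.853 and 0.615% of the fragments in the same order of libraries, and the small subunit 0.542, 0.555, 0.363 and 0.256%.

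Levels of different genes were compared per kb of the principal transcript, scaled to the same sum over all genes in each library. On this scale the highest means of the 4 libraries were those of RPLP0 (1819), the base of the stalk that recruits elongation factors, RPL8 (1637), RPL3 (1165), RPL6 (1028) and RPL15 (999), all of the large subunit. The lowest above 10 were those of RPL39L (19.5) and RPS27L (25.8). The annotated principal transcript of RPS27L is 6434 bases long, however, and per kb of coding sequence RPS27L ranked 44th and RPL39L 76th of the members. RPLP0 stayed highest and RPL8 2nd on both scales. Per kb of coding sequence, however, RPL3 ranked 13th, RPL15 14th and RPL6 22nd, and RPS20, of the small subunit, ranked 4th. RPLP0 had 1085 CPM in R-U87MG si-NC, 1127 CPM in si-HDAC6, 851 CPM in U87MG si-NC and 509 CPM in si-*LINC00461*. RPLP0 was thus lowest after si-*LINC00461* and similar in both R-U87MG libraries. The order of the 78 members by CPM was much alike in all libraries, with Spearman's rho between 0.930 and 0.992 over the 6 pairs of libraries. These points share the lengths and sequences of the same genes.

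Of the 84 members, 6 had at most 13 counts in every library and were not compared. RPL3L and RPL10L, which are expressed mainly in muscle and testis, were listed at 0 in all libraries. The other 4, RPS18, RPS25, RPL7A and RPS9, encode proteins that are part of every ribosome. RPS18, at the head of the small subunit, was listed at 0 in all 4 libraries. RPS25 had 0 counts in both si-NC libraries, 1 in si-HDAC6 and 2 in si-*LINC00461*. RPL7A had 5, 2, 3 and 2 counts and RPS9 had 13, 10, 10 and 6 counts in the order R-U87MG si-NC, si-HDAC6, U87MG si-NC and si-*LINC00461*. Protein-coding neighbours of these genes were also near 0. Within 50 kb of RPL7A, 5 of 6 had at most 3 counts in the 4 libraries together, among them SURF1, SURF2 and MED22, which were listed at 0. The numbers were 6 of 9 around RPS9, 6 of 8 around RPS18, including VPS52, and 5 of 6 around RPS25, including TRAPPC4. Over all protein-coding genes, 25.3% had so few counts, and around RPL41, a member at usual levels, 1 of 8 did. The values of these 4 genes were therefore not read as expression levels, and the cause of the near-absence of fragments over these stretches was not tested.

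Reads of ribosomal protein genes can also fall on their many processed pseudogenes. A median of 8.12% of the 50-base stretches of a member's transcripts also occurred in transcripts of other genes, and the share was above 20% for 10 members and highest for RPS2 (37.4%). Estimated counts were whole fragment numbers in all libraries for 75 members. RPL17, RPL26 and RPS10 had no whole number in any library, and their values are taken as uncertain. Annotated ribosomal protein pseudogenes held 7.16, 6.53, 5.76 and 5.95% of the fragments of members and pseudogenes together in R-U87MG si-NC, si-HDAC6, U87MG si-NC and si-*LINC00461*, respectively.

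The first comparison asked which transcripts differ when HDAC6 is knocked down in resistant cells. Ratios are log2 of counts plus 0.5 over the TMM effective library size, for genes with a mean of at least 1 CPM, and a member was called higher where it was at least 25% above its control and lower where it was at least 20% below it. The ribosomal protein genes as a group hardly differed. The median log2 ratio of the 78 members was 0.05 (SD over genes 0.20), against −0.01 for all 13120 genes compared, and the median counting interval of a member reached 0.08 to either side. In all, 3 members were called lower, against 7.95% of all genes, and 0 were called higher, against 8.56% of all genes. With total-count scaling 2 were called lower and 1 higher. At 2-fold, 1 member was lower (all genes 0.747%) and 0 were higher (all genes 0.694%). The intervals of 26 members lay wholly above 0 (all genes 13.8%) and those of 10 wholly below it (all genes 16.4%). Regardless of size, 54 members had ratios above 0 and 24 below it, where 48.9% and 51.1% of all genes did. Without the 5 paralogs the median was also 0.05, and the large and small subunits had medians of 0.04 and 0.05.

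RPL41 had the lowest ratio. It encodes the shortest ribosomal protein, a basic peptide of the large subunit. Its counts were 1189 (R-U87MG si-NC), 369 (si-HDAC6), 969 (U87MG si-NC) and 705 (si-*LINC00461*), which correspond to 71.5, 29.3, 48.4 and 39.7 CPM. The si-HDAC6 library was the low one, with a log2 ratio to its control of −1.30 (interval −1.47 to −1.13). Its values were whole fragment numbers in all libraries, and its 50-base stretches were shared at 14.7%. The neighbouring genes ESYT1 and PA2G4 had log2 ratios of 0.06 and −0.05 in the same comparison. RPL21, also called lower, had 1242 and 755 counts and a ratio of −0.33 (−0.46 to −0.19). After libraries were thinned to equal totals, RPL41 was the only member still called lower.

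At the other end of the HDAC6 comparison the ratios were small. RPL13, a protein of the large subunit, had the highest ratio, 0.32 (0.27 to 0.37), just under the level at which a member was called higher. Its counts were 7076 for the control and 6722 for the knockdown. RPL36 followed at 0.26 and RPS21 at 0.24. RPL31 was at 0.23. Across the 78 members the ratio correlated with the GC content of the transcript at r = 0.24 (Spearman's rho 0.38), and over all protein-coding genes at r = 0.22 (rho 0.32), so the members shared the sign of the trend over all coding genes between the same libraries. These are descriptions over genes, which are not independent replicates.

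The second comparison asked the same of *LINC00461* knockdown in parental cells, and here most members were lower. The median log2 ratio of the 78 members was −0.38 (SD over genes 0.33), while that of all 13210 genes compared was −0.00. In this comparison 44 members were called lower, against 28.2% of all genes, and 1 was called higher, against 26.8% of all genes. The members' share of lower calls was 56.4%. The interval lay wholly below 0 for 64 members (all genes 33.4%) and wholly above 0 for 3 (all genes 33.1%). The 71 members with ratios below 0 compare with 50.2% of all genes and the 7 above 0 with 49.8%. The summed counts of the members gave a ratio of −0.47. At 2-fold, 3 members were lower (all genes 8.17%) and 0 higher (all genes 5.42%), so most differences were below 2-fold. The median was between −0.35 and −0.41 under the scalings tried.

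The P-stalk genes differed among themselves. RPLP1, an acidic stalk protein that contacts elongation factors, went from 5185 to 1852 counts, a log2 ratio of −1.30 (−1.38 to −1.22). Its partner RPLP2 had 596 and 446 counts and a ratio of −0.23 (−0.41 to −0.05), and RPLP0, which anchors both, had 17049 and 9053 counts and a ratio of −0.73 (−0.76 to −0.69). The intervals of RPLP1 and RPLP2, whose proteins form a dimer, did not overlap.

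Of the large subunit, RPL26L1 (216 and 69 counts, −1.45), which is described with the paralogs, also had a low ratio. RPL10, which helps shape the peptidyl transferase centre, had 3586 and 1788 counts and a ratio of −0.82 (−0.90 to −0.73). Of the small subunit, RPS21 had 541 and 246 counts, a ratio of −0.95 (−1.17 to −0.73). RPS2, at the entry of the mRNA channel, had 5912 and 2812 counts and a ratio of −0.88 (−0.95 to −0.82). RPS2 also had the highest share of stretches found in other genes, so its value is less certain than that of RPS21, of which 0.3% were shared.

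Few members went the other way. RPL34, of the large subunit, went from 256 to 348 counts and was the 1 member called higher, at 0.63 (0.39 to 0.87). The intervals of RPL21 (0.22, 0.05 to 0.38) and RPL7L1 (0.15, 0.05 to 0.25) also lay above 0. RPS27A, which is made as a fusion with ubiquitin, was at 0.12 and RPL35A at 0.08, with intervals that held 0. RPS28, RPS27, RPL31 and RPL39 lay between −0.08 and 0.04.

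The difference was described beside genes that resemble the members in other ways. The 608 other coding genes with a principal transcript of at most 1000 bases had a median ratio of 0.05, the 3314 with a GC content between the members' quartiles one of 0.04, and the 2964 with a mean level between the members' quartiles one of 0.04. After a fit on GC content, length and level, chosen after the data were seen, the members' median was −0.35. Members with lower ratios had somewhat higher GC content (r = −0.26 over 78 members), whereas over 11860 protein-coding genes r was 0.10. Mitochondrial ribosomal protein genes, which build the separate ribosome of the mitochondrion, had a median of −0.17. Of these, 23 of 75 (30.7%) were called lower, near the 28.2% of all genes, and 4 (5.33%) higher, against 26.8% of all genes. Members with and without the 5′TOP motif at the start had medians of −0.40 (n = 43) and −0.34 (n = 19).

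Last, the control libraries of the resistant and parental cells were compared. They differ in cell line, in TMZ in the medium, in the pair with which their deposited values appear to have been scaled, and in library. These cannot be told apart. They are also the controls of the comparisons above, so the values are not independent of those. The median log2 ratio of R-U87MG si-NC to U87MG si-NC over the 78 members was 0.30 (SD over genes 0.37), against 0.02 for all 13349 genes. Of the members, 37 were called higher, against 34.8% of all genes, and 1 lower, against 34.5% of all genes. At 2-fold, 4 were higher (all genes 11.2%) and 0 lower (all genes 15.0%). Intervals lay wholly above 0 for 58 (all genes 39.4%) and wholly below it for 9 (all genes 38.8%), and ratios were above 0 for 63 (all genes 51.1%) and below it for 15 (all genes 48.9%). The members' share of higher calls, 47.4%, was thus closer to that of all genes than their share of lower calls, 1.28%. The median ranged from 0.26 with upper-quartile scaling to 0.57 with total counts, a scaling that moved the median of all genes to 0.28. After the fit on GC content, length and level it was 0.079, with 22 members called higher and 8 lower.

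RPL39, a small protein at the exit tunnel, had the highest ratio, 1.28 (1.07 to 1.48), with 279 counts in the parental and 675 in the resistant control. RPL22L1 was next at 1.26, then RPL34 (256 and 583 counts) at 1.19 and RPL21 (618 and 1242 counts) at 1.01. RPS27A was at 0.97. RPL34 and RPL21 were also the highest of the members after si-*LINC00461*, a comparison that uses the same parental control library. At the other end RPS28, of the small subunit, had 1020 and 814 counts and was just short of a lower call at −0.32 (−0.46 to −0.19). RPL36A was at −0.28 and RPL11 at −0.20. The mitochondrial ribosomal protein genes had a median of 0.48 in this comparison.

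The HDAC6 and *LINC00461* comparisons share no library. Of the 78 members, 50 were above 0 after si-HDAC6 and below 0 after si-*LINC00461*, 21 were below 0 in both, 4 above 0 in both, and 3 below 0 and above 0, respectively. Over the members the ratios correlated at r = −0.22 (Spearman's rho −0.23), and without RPL41 at r = −0.29. Over 11246 protein-coding genes r was 0.11 (rho 0.16). These correlations are weak, and the genes in them share sequence features. RPS21 was at 0.24 after si-HDAC6 and −0.95 after si-*LINC00461*, and RPL13 at 0.32 and −0.81, whereas RPL21 was at −0.33 and 0.22 and RPL7L1 at −0.17 and 0.15.

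Paralogs were described beside their parent genes, since some are known to take the place of the parent in the ribosome. RPL22L1, whose level RPL22 is known to restrain, had 772 (R-U87MG si-NC), 531 (si-HDAC6), 323 (U87MG si-NC) and 179 counts (si-*LINC00461*). RPL22 itself had 2030, 1401, 1880 and 1509 counts. Per kb of coding sequence, RPL22L1 made up 28.5% of the summed level of both in each R-U87MG library, 15.3% in U87MG si-NC and 11.1% in si-*LINC00461*. All parts of pairs below are on this scale. Their size depends on the length used, since fragments outside the coding sequence are counted too. The RPL22L1 ratio was 1.26 (1.07 to 1.45) between the controls, where that of RPL22 was 0.11 (0.02 to 0.21). After si-*LINC00461* RPL22L1 was at −0.66 (−0.94 to −0.40) and RPL22 at −0.13 (−0.23 to −0.03). In the HDAC6 comparison they were at −0.15 and −0.14.

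RPL26L1 had 332, 297, 216 and 69 counts in the same order of libraries, so the si-*LINC00461* library was the low one. Its ratio there was −1.45 (−1.87 to −1.06), the lowest of all members, against −0.49 (−0.57 to −0.42) for RPL26, and its part of the pair went from 5.41% to 2.84%. Of its 50-base stretches, 31.9% also occur in other genes, and the RPL26 counts were not whole numbers. RPL39L, known from testis and some tumours, was low, with 122, 107, 99 and 53 counts. It made up 26.2% of the pair with RPL39 in U87MG si-NC and 15.3% in R-U87MG si-NC, where RPL39 was the gene that differed more.

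RPL7L1, a relative of RPL7, had 2550, 1733, 1635 and 1598 counts. It was 1 of the 3 members whose interval lay above 0 after si-*LINC00461*, while RPL7 was at −0.29 (−0.38 to −0.20). Per kb of coding sequence, the part of RPL7L1 in the pair was 40.5% in U87MG si-NC and 48.0% in si-*LINC00461*. The principal transcript is 3769 bases long for RPL7L1 and 1101 for RPL7. Per kb of that transcript, their levels in U87MG si-NC were 54.2 and 265.5, so the part of RPL7L1 was smaller on that scale. RPL36AL, which no rule for members includes, had 1847, 1409, 910 and 831 counts and was at 0.06 (−0.08 to 0.19) after si-*LINC00461*, against −0.74 (−0.92 to −0.58) for RPL36A. Its part of that pair was between 52.0% and 72.9% in the 4 libraries. Between the controls the 6 measured paralogs of the list, RPL36AL included, had a median of 0.63 and the 8 parents of all listed paralogs one of 0.29.

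RPS27L, a paralog of RPS27 that is itself a known p53 target, had 1519, 1026, 1028 and 774 counts in the order of libraries used above. It was at −0.17 (−0.29 to −0.06) after si-HDAC6 and −0.22 (−0.36 to −0.09) after si-*LINC00461*, so neither ratio was called. RPS27, a zinc finger protein of the small subunit, had 1812, 1546, 977 and 878 counts and was at 0.16 (0.06 to 0.26) and 0.03 (−0.10 to 0.17). RPS27L made up 45.6% of the pair in the resistant control and 39.9% with si-HDAC6, and 51.3% in the parental control and 46.9% with si-*LINC00461*. In both knockdowns RPS27L was thus lower relative to RPS27 than in the control. The size of these parts depends on the length used, as the annotated principal transcript of RPS27L is much longer than its coding sequence.

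Of the 16 ribosomal proteins tied to MDM2 and p53, 15 could be compared, RPS25 being near 0. After si-HDAC6 their median was −0.01 and none of the 15 was called, where 7.95% of all genes were called lower and 8.56% higher. After si-*LINC00461* the median was −0.22 and 7 (46.7%) were called lower, against 28.2% of all genes. Between the controls the median was 0.29 and 6 (40.0%) were called higher, near the 34.8% of all genes. RPL5, which carries 5S RNA into the large subunit together with RPL11, had 2592, 2010, 2271 and 1570 counts and was at −0.35 (−0.44 to −0.25) after si-*LINC00461*. RPL11 had 5301, 3654, 6107 and 3434 counts and was at −0.64 (−0.70 to −0.58), and at −0.15 (−0.21 to −0.08) after si-HDAC6. RPS3, with a second role in DNA repair, was at −0.68 (−0.78 to −0.58) and RPL23 at −0.18 (−0.26 to −0.10) after si-*LINC00461*, so members of this list differed among themselves by more than their counting intervals. RPS7 was at −0.51, RPL37 at −0.42 and RPS15 at −0.42 in that comparison. RPS20 was at −0.21, RPS14 at −0.18 and RPS26 at −0.10.

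The p53 target genes gave no single direction. Of 24 target genes, 10 (41.7%) were called lower and 3 (12.5%) higher after si-*LINC00461*, against 28.2% and 26.8% of all genes, with a median of −0.15. TNFRSF10B, a death receptor, was lowest at −1.52 and TP53I3 highest at 0.69, while CDKN1A, the cell cycle inhibitor p21, was at −0.03 (−0.09 to 0.03) and MDM2, whose values were not whole fragment numbers, at −0.31 (−0.40 to −0.23). After si-HDAC6 their median was 0.08, 1 (4.17%) was called higher (GDF15, 0.38) and 0 lower, against 8.56% and 7.95% of all genes. CDKN1A was at 0.15 and MDM2 at 0.04.

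Regulators and partners of the members are given from lists of known genes. MYC had 1957, 1470, 1449 and 297 counts and was at −2.10 (−2.28 to −1.92) after si-*LINC00461*, and at −0.02 (−0.12 to 0.08) after si-HDAC6. Of the 21 regulators compared, 6 (28.6%) were called lower and 4 (19.0%) higher after si-*LINC00461*, so the lower share was near the 28.2% of all genes and the higher share below their 26.8%. Among them were EIF4EBP1, an mTOR target that blocks translation, at −1.47 and MXD4, a MYC antagonist, at 0.60. MTOR was at 0.04 and LARP1 at 0.16. Other 5′TOP genes had a median of −0.31 in that comparison, with 12 of 25 (48.0%) called lower and 1 higher, PABPC4 lowest at −1.19 and EIF4A2 highest at 0.36. FAU was at −0.25 and RACK1, a scaffold on the small subunit, at −0.76.

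Ribosome biogenesis factors did not share the members' median after si-*LINC00461*. Their median was 0.02, with 10 of 66 (15.2%) called lower and 12 (18.2%) higher, both below the 28.2% and 26.8% of all genes, NPM1 lowest at −0.84 and POLR1C highest at 0.89. Between the controls they had a median of 1.13, and 61 of 66 (92.4%, against 34.8% of all genes) were called higher in R-U87MG and 1, PPAN at −0.83, lower. The PPAN values were not whole fragment numbers. NOP56, a core protein of box C/D small nucleolar ribonucleoproteins, had 305 counts in the parental and 2310 in the resistant control, a ratio of 2.92 (2.75 to 3.10). The lncRNA genes GAS5 and SNHG1, hosts of small nucleolar RNAs, were at 2.04 and 1.61. After si-HDAC6, 2 factors of this list (3.03%) were called lower and 2 (3.03%) higher, against 7.95% and 8.56% of all genes. RRN3 had the highest ratio of the list, 0.45. The lower ones were FBL, the methyltransferase fibrillarin, at −1.12 (291 and 102 counts) and SBDS, which releases EIF6 from the large subunit, at −0.90 (1995 and 816 counts). The 9 compared chaperones and 5S assembly factors had medians of −0.09 after si-HDAC6, −0.20 after si-*LINC00461*, with HEATR3 lowest at −0.86, and 0.57 between the controls.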

How the data were processed

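Per the submitters' notes, reads from strand-specific total RNA libraries were demultiplexed with bcl2fastq, trimmed with Trimmomatic 0.36 and aligned with HISAT2 to GRCh38.p13. The counting program and its annotation are not given in the sources used here. The values as deposited by the authors were treated as estimated counts of Ensembl genes, each library multiplied by a factor of its own. The factors were inferred from the values as 0.869 (R-U87MG si-NC), 1.15 (si-HDAC6), 0.939 (U87MG si-NC) and 1.06 (si-*LINC00461*). By these factors both libraries of a pair appear to have been scaled together, but the origin of the factors is not given in the sources used. Each library was divided by its factor and values were rounded, after which 94.2 to 94.5% of values above 0 were whole numbers within 0.02 or the precision of the 6 printed digits. Symbols, transcripts and lengths came from GENCODE 29.

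With 1 library per condition no test was possible. Log2 ratios used a pseudocount of 0.5 and edgeR 4.0.16 TMM scaling (R 4.3.3), with exact binomial 95% intervals (scipy 1.17.1, Python 3.11.15), for genes with a mean of at least 1 CPM. The tests planned for counts were not used. DESeq2 1.42.0 gave alternative size factors. On counts simulated without spread between cultures, all of 100 genes changed 2-fold passed the call threshold, which is below 2-fold, in each comparison. This checked the computation only and does not bear on the smaller differences of most members.

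The members and gene lists were chosen with earlier results of these data known. Genes were named by rule: members of the P-stalk, paralog, parent, MDM2 and p53 lists, the 5 highest and 5 lowest members by ratio and level, and the 3 highest and 3 lowest of each other list. RPL17, RPS10, RPS18, pseudogenes and neighbouring genes are outside it and were chosen after their values were seen. Some genes that the rule names are not reported here.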

Additional observations from a re-analysis of the deposited data

How the results depend on the processing

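No paired analysis was possible because each condition had 1 library. For the same reason no replicate could be left out, and the counting intervals do not cover the spread between cultures. Under the alternatives run, the members' median ratio stayed between 0.03 and 0.08 after si-HDAC6 and between −0.41 and −0.35 after si-*LINC00461*. Fits on GC content, length and level, lengths of coding sequence and the scaling of the deposited values were added after the data were seen. After si-HDAC6, 1 member was called lower with thinned libraries or thresholds of 1.5-fold or 2-fold, and 1 was called higher with total counts, thinned libraries or all members with a count. After si-*LINC00461*, 21 members were lower at 1.5-fold and 3 at 2-fold, and 2 were higher with all members with a count and 0 at 2-fold. Between the controls the median was 0.57 with total counts and 0.079 after the fit on GC content, length and level, with 61 and 22 members higher and 0 and 8 lower, respectively. There 2 members were lower with DESeq2 size factors, 3 with upper-quartile scaling and 0 at 1.5-fold or 2-fold, while 18 were higher at 1.5-fold and 4 at 2-fold. Total counts also moved the list medians between the controls, to 0.43 for the P-stalk, 0.90 for paralogs, 0.55 for their parents, 0.62 for ribosomal proteins named otherwise, 0.55 for those tied to MDM2 and p53, 0.61 for p53 targets, 0.49 for other 5′TOP genes, 1.39 for biogenesis factors, 0.84 for 5S assembly factors and chaperones and 0.24 for regulators. That scaling moved all genes by a median of 0.28. Of the ratios of named genes under alternatives, 1949 moved by less than their counting interval, 115 by more and 0 reversed a called direction.

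With nuclear coding counts as the denominator the members' shares were 1.84, 1.91, 1.29 and 0.928% in R-U87MG si-NC, si-HDAC6, U87MG si-NC and si-*LINC00461*, and with members of whole fragment numbers alone 1.595, 1.65, 1.10 and 0.792%. The median level per length was 179, 183, 129 and 95.9 with the union of exons and 417, 428, 307 and 228 with the coding length.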

Other observations

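Processed pseudogenes of ribosomal protein genes, chosen for mention after their values were seen, differed among themselves. RPLP0P2 had 918 counts in the resistant control, 868 with si-HDAC6, 71 in the parental control and 467 with si-*LINC00461*, an order not seen for RPLP0, which was lowest with si-*LINC00461*. RPS2P5 had 3246, 2127, 2033 and 891 counts in the same order, so it was lowest in the same library as RPS2. RPL7AP6 had 811, 619, 829 and 588 counts, while its parent RPL7A had at most 5. Between 192 and 217 such pseudogenes had a count in a library.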
